A study of Caenorhabditis elegans with 3 samples.

Results

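The 9 fatty acid elongase genes of the nematode Caenorhabditis elegans, elo-1 to elo-9, were examined in adult hermaphrodites against a mixed reference RNA. They were chosen by name: a probe counted when its only gene symbol was one of the 9. Of these genes, 7 had such a probe, 1 each, with a value on every array, and were among the 15092 named genes tested. No probe carried the symbol elo-8 or elo-9, and these 2 genes were not analysed here. RNA of adult hermaphrodites, coded TP09 by the submitters and prepared 3 times, was hybridised on 3 two-colour arrays, 1 prep per array in channel 2. Channel 1 of every array held a mixed reference RNA labelled wild type. The genotype, strain and age in hours of the adults, the make-up of the reference and whether the preps are separate cultures are not given in the sources used. P-values therefore cover only the differences between these 3 preps, and those can be technical.

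Fatty acid elongases sit in the endoplasmic reticulum and add carbons to a fatty acyl-CoA. They catalyse the first and usually limiting step of each round, the condensation with malonyl-CoA, and separate reductases and a dehydratase finish the round. In this worm elo-1 acts on polyunsaturated fatty acids, elo-2 on palmitic acid, and elo-5 and elo-6 on monomethyl branched-chain fatty acids, which the worm makes for itself and needs for growth. Intestine and epidermis are main sites of fatty acid synthesis, and yolk carries lipid to the oocytes.

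Every value below is a log2 ratio of adult over reference, with each array centred on its median probe and the SD taken over n = 3 arrays. The table does not state the direction of its ratios. The likely direction, adult over reference, rests on the labels, which name the adult prep first and place it in channel 2; with the other direction every sign turns. Of 12 oocyte and eggshell genes, 11 were higher and 1 lower, with rme-2 at 2.30 and cbd-1 at 2.21. The adult cuticle collagen gene col-19 stood at 2.12 ± 0.15. Of 14 moulting genes, 9 were lower and 5 did not pass, with grl-7 at -3.01 and ptr-4 at -1.74. Of all genes, 20.9% passed as higher and 23.5% as lower in the test described below. Yolk genes gave no clear sign: vit-2 was higher at 1.03, while vit-6 at 0.06 and vit-5 at -0.06 did not pass. These lists were known to behave so from earlier work on the same arrays. Signal over background was not used here, and the number of arrays limits the precision.

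One elongase was far lower in adults, and the rest of the family lay close to the reference. The elo-4 gene was 7.98-fold lower, at -2.997 ± 0.33. The elo-7 gene was 1.42-fold lower and the elo-3 gene 1.45-fold higher, while elo-1, elo-2, elo-5 and elo-6 lay within 0.2 of 0 and did not pass the test. By limma with Benjamini-Hochberg adjustment over all genes at a threshold of 0.05, 3 of the 7 elongases passed, 1 higher and 2 lower. Of all genes tested 44.4% passed, 20.9% higher and 23.5% lower, so the share of the family that passed, 42.9%, lay near that of all genes. The family's median was 0.02, against -0.02 over all genes, and its median distance from 0 was 0.17, against 0.35 over all genes. In whole worms, fewer cells of a type and less RNA per cell cannot be told apart.

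**Figure D1:**
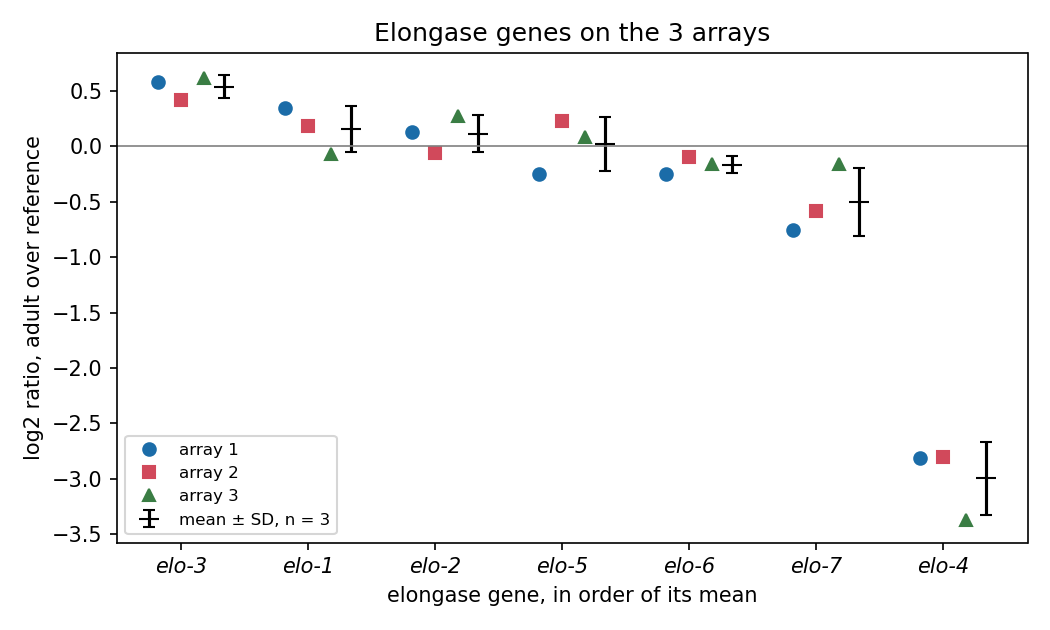
Log2 ratio of adult over reference (vertical axis) for the 7 measured elongase genes, ordered by their mean (horizontal axis); symbols are the 3 arrays and bars the mean ± SD (n = 3). The 3 arrays of elo-4 lie between -3.38 and -2.80, apart from every other elongase value, and elo-3 is the only gene above 0 on all 3 arrays.

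The gene elo-1, for the polyunsaturated fatty acid elongase, had log2 ratios of 0.35, 0.19 and -0.07 on replicates 1, 2 and 3. The mean was 0.16 ± 0.21 (adjusted p = 0.392, limma). The arrays fell on both sides of the reference, and the 95% limma interval ran from -0.16 to 0.47. A difference in adults beyond 1.39-fold higher or 1.12-fold lower lay outside that interval.

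The gene elo-2, for the palmitic acid elongase, had log2 ratios of 0.13, -0.06 and 0.27 on replicates 1, 2 and 3. Its mean was 0.12 ± 0.17 (adjusted p = 0.510), and its signs differed between arrays too. The interval, from -0.19 to 0.42, was nearly that of elo-1. The order of these neighbours changed with the array: elo-1 was the higher by 0.22 and 0.24 on replicates 1 and 2, and elo-2 was the higher on replicate 3. They did not differ beyond their spread (0.04 ± 0.33).

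The branched-chain elongase genes also stayed near the reference. The gene elo-5, whose product extends monomethyl branched-chain fatty acids, had log2 ratios of -0.25, 0.22 and 0.09 on replicates 1, 2 and 3. Replicate 1 lay below the reference and the other arrays above it, for a mean of 0.02 ± 0.25 (adjusted p = 0.926) and an interval from -0.31 to 0.35. Leaving out replicate 2 or replicate 3 gave a mean of -0.08 or -0.01, so elo-5 had no stable sign.

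The gene elo-6, which acts after elo-5 in the same synthesis, had log2 ratios of -0.25, -0.09 and -0.16. All 3 arrays were slightly below the reference and close together, and their mean of -0.17 ± 0.08 did not pass (adjusted p = 0.308). Only 9.71% of all genes had a smaller SD. The elo-6 probe lies in a stretch of 625 table rows whose median on replicate 1 was -0.28. Centred within such stretches, elo-6 stood at 0.03, -0.20 and -0.21, a mean of -0.13 ± 0.14. Without centring and with scale or quantile normalization, all 3 arrays stayed below the reference (SD 0.05, 0.04 and 0.04). Centring by stretches or within their 4 positions put replicate 1 slightly above it, so the single sign depended on the processing. The RefSeq annotation of WBcel235 places elo-5 and elo-6 on the same chromosome with 3 protein-coding genes between them. Within the arrays, elo-6 minus elo-5 was 0.00, -0.32 and -0.25, a mean of -0.19 ± 0.17 (exact sign-flip permutation test, two-sided, p = 0.5; the smallest p that 3 arrays allow is 0.25). With median centring the pair did not differ on replicate 1, and elo-6 was the lower on the other arrays. Centred within stretches of rows, elo-6 (0.03) lay above elo-5 (-0.09) on replicate 1 and below it on the other arrays.

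The elongase genes that passed the test are those without a role given above. The gene elo-4 had log2 ratios of -2.81, -2.80 and -3.38 on replicates 1, 2 and 3. Every array put it at least 2.05 below any other elongase on that array. The adjusted p was 2.87e-05, and the 95% limma interval ran from -3.36 to -2.63, that is from 10.3-fold to 6.21-fold lower in adults. Among the 15092 genes, 58 had a lower mean. The call held against a 1.5-fold change (limma's treat, adjusted p = 8.51e-05), which 13.8% of all genes and no other elongase passed. The mean stayed between -3.22 and -2.81 under every alternative tried.

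The gene elo-3 had log2 ratios of 0.58, 0.42 and 0.62 on replicates 1, 2 and 3, above the reference on every array. Its mean was 0.54 ± 0.10 (adjusted p = 0.00947), and 83.4% of all genes had a lower mean. The probe lies in a stretch of table rows whose median on replicate 1 was 0.42, against 0.09 and 0.07 on replicates 2 and 3. Centred within such stretches of 625 rows, elo-3 stood at 0.16, 0.33 and 0.55, and its mean of 0.34 did not pass (adjusted p = 0.0556). Without replicate 3 it did not pass either, at a mean of 0.50 (adjusted p = 0.0896).

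The gene elo-7 had log2 ratios of -0.76, -0.58 and -0.16 on replicates 1, 2 and 3. All arrays were below the reference, but by unequal amounts, and 71.2% of all genes had a smaller SD. The mean was -0.50 ± 0.31 (adjusted p = 0.0298). It did not pass without replicate 1 (-0.37, adjusted p = 0.0702), without replicate 2 (-0.46, adjusted p = 0.1001) or with centring by stretches of rows (-0.42, adjusted p = 0.0594). Replicate 1 was the array least like the others (Pearson correlation across genes 0.82 and 0.85, against 0.92 between replicates 2 and 3). With limma's array weights, lowest for replicate 1, elo-7 stood at -0.33 and barely passed (adjusted p = 0.0497). In the same annotation elo-7 is the next protein-coding gene to elo-1. Within the arrays, elo-7 minus elo-1 was -1.11, -0.77 and -0.09, so elo-7 was the lower of the pair on all 3 arrays. The mean difference was -0.66 ± 0.52 (exact sign-flip permutation test, two-sided, p = 0.25, the smallest possible), and without replicate 1 it was -0.43.

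Without replicate 1 or without replicate 2, elo-3 and elo-4 passed, and without replicate 3, elo-4 and elo-7 did. The share of all genes that passed was 47% without replicate 1, 39.2% without replicate 2 and 32.7% without replicate 3. With centring by stretches of rows 45.4% of all genes passed, and of the elongases elo-4 did. Of the 7 genes, 4 (elo-3, elo-4, elo-6 and elo-7) had 1 sign on all arrays with median centring, as did 67.6% of all genes. With centring by stretches of rows, elo-6 no longer had 1 sign, while elo-2 did (0.004, 0.03 and 0.36).

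**Figure D2:**
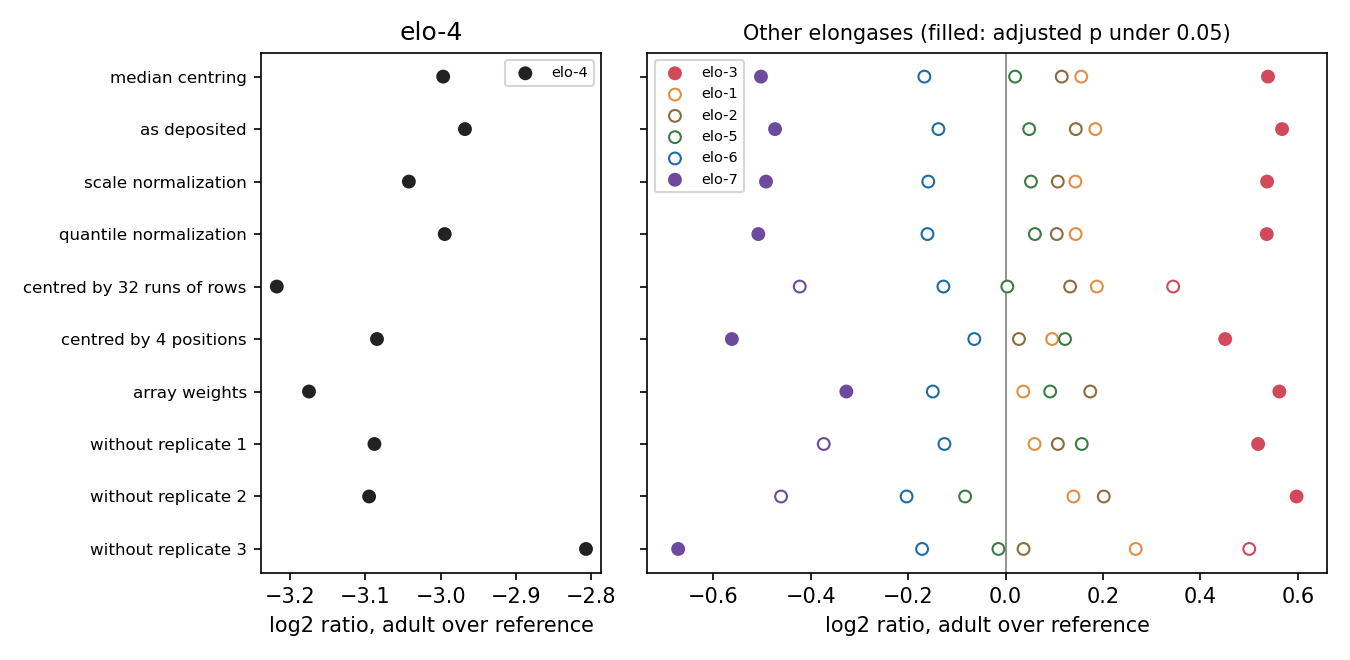
Mean log2 ratio of adult over reference (horizontal axes) of each elongase under 10 ways of processing (rows), with elo-4 in the left panel on its own scale; filled points passed at an adjusted p under 0.05. The elo-4 points are filled in every row, those of elo-3 and elo-7 in most rows, and the other 4 genes in none.

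In the order of the means, from elo-4 at the bottom through elo-7, elo-6, elo-5, elo-2 and elo-1 to elo-3 at the top, 3 of the 6 steps had the same sign on every array. The step from elo-4 to elo-7 was 2.49 ± 0.63. The step from elo-7 to elo-6 was 0.34 ± 0.29, but on replicate 3 it was 0.005. The step from elo-1 to elo-3 was 0.38 ± 0.26. With centring by stretches of rows, elo-6 (-0.21) lay below elo-7 (-0.03) on replicate 3, and elo-3 (0.16) below elo-1 (0.33) on replicate 1. The step from elo-4 to elo-7 kept its sign on every array. The middle steps, from elo-6 to elo-5, to elo-2 and to elo-1, changed sign between arrays. The step from elo-6 to elo-5 was 0.19 ± 0.17, with -0.005 on replicate 1. The steps from elo-5 to elo-2 (0.10 ± 0.34) and from elo-2 to elo-1 (0.04 ± 0.33) lay within their spread. Across more than a single step, elo-6 lay below elo-2 and below elo-1 on all 3 arrays. With centring by stretches of rows it stayed below elo-1, but lay above elo-2 on replicate 1 (0.03 against 0.004). Close relatives can share signal on an array, so how far the values of similar elongases are separate measurements was not tested.

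**Figure D3:**
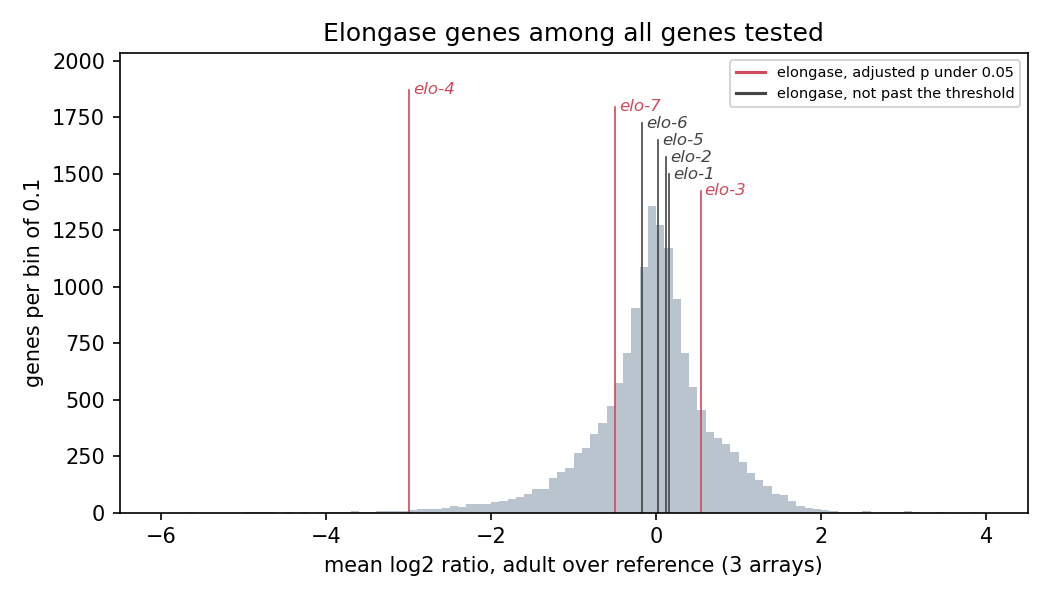
Number of genes per bin of 0.1 (vertical axis) by mean log2 ratio of adult over reference (horizontal axis) for the 15092 genes tested, with a line at each elongase (red where the adjusted p was under 0.05). The elo-4 line stands in the far lower tail, elo-3 and elo-7 on the shoulders, and the other 4 in the central peak.

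The genes most like elo-4 and elo-3 were found by the Euclidean distance between their 3 array values. Nearest to elo-4 were C17H12.8 (distance 0.18, mean -3.03), the neuropeptide-like gene nlp-8 (distance 0.30, mean -2.997) and T14B1.1 (distance 0.30, mean -2.87), and 13 genes lay within a distance of 0.5. Nearest to elo-3 were dnc-4, C17H11.2 and T14G10.8, at distances of 0.04, 0.05 and 0.05, among 1759 genes within 0.5. With 3 arrays, such likeness describes a similar ratio and little else.

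Other genes of fatty acid metabolism were counted in 6 lists written for the pathway. The lists were written with earlier results of these data known, so their counts are description only. Of the enzymes that complete each elongation round, hpo-8, related to the dehydratase, was measured, with log2 ratios of -0.94, -0.80 and -0.78. All arrays were below the reference, and its mean of -0.84 ± 0.09 passed (adjusted p = 0.00124). The genes let-767 and art-1 of the same list had no probe by symbol.

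Desaturases, which add double bonds to the chains that elongases extend, were lower. All 5 measured of the 7 listed passed on the lower side, with a median of -1.38; 23.5% of all genes did. The front-end desaturase gene fat-3 stood at -4.41 ± 0.16 and fat-2, whose enzyme makes linoleic acid, at -1.83 ± 0.23. Thus fat-2, fat-3 and fat-4 (-1.38 ± 0.07), of the polyunsaturated fatty acid route, were lower, while elo-1 of that route lay at 0.16 ± 0.21 and did not pass. The stearoyl desaturase gene fat-7 stood at -1.32 ± 0.23 and the palmitoyl desaturase gene fat-5 at -0.56 ± 0.17, beside the palmitic acid elongase gene elo-2 at 0.12 ± 0.17. Close copies among the desaturases, such as fat-6 and fat-7, can share signal.

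Many genes of the synthesis and precursor lists were higher. All 5 genes of fatty acid synthesis and of acetyl-CoA and malonyl-CoA metabolism passed on the higher side, with a median of 0.95; 20.9% of all genes did. The ATP citrate lyase genes acly-2 and acly-1 led, at 1.37 ± 0.21 and 1.26 ± 0.21. The list also holds mlcd-1, for malonyl-CoA decarboxylase, which removes malonyl-CoA, at 0.42 ± 0.10. Of 6 genes that supply and activate branched-chain precursors, 4 were higher and 2 did not pass, bcat-1 at 0.33 and dbt-1 at 0.02; the median of the 6 was 1.01. The acyl-CoA synthetase gene acs-1 stood at 1.54 ± 0.41 and bckd-1A, for a branched-chain ketoacid dehydrogenase subunit, at 1.10 ± 0.30, beside elo-5 at 0.02 ± 0.25 and elo-6 at -0.17 ± 0.08 in the same synthesis.

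**Figure D4:**
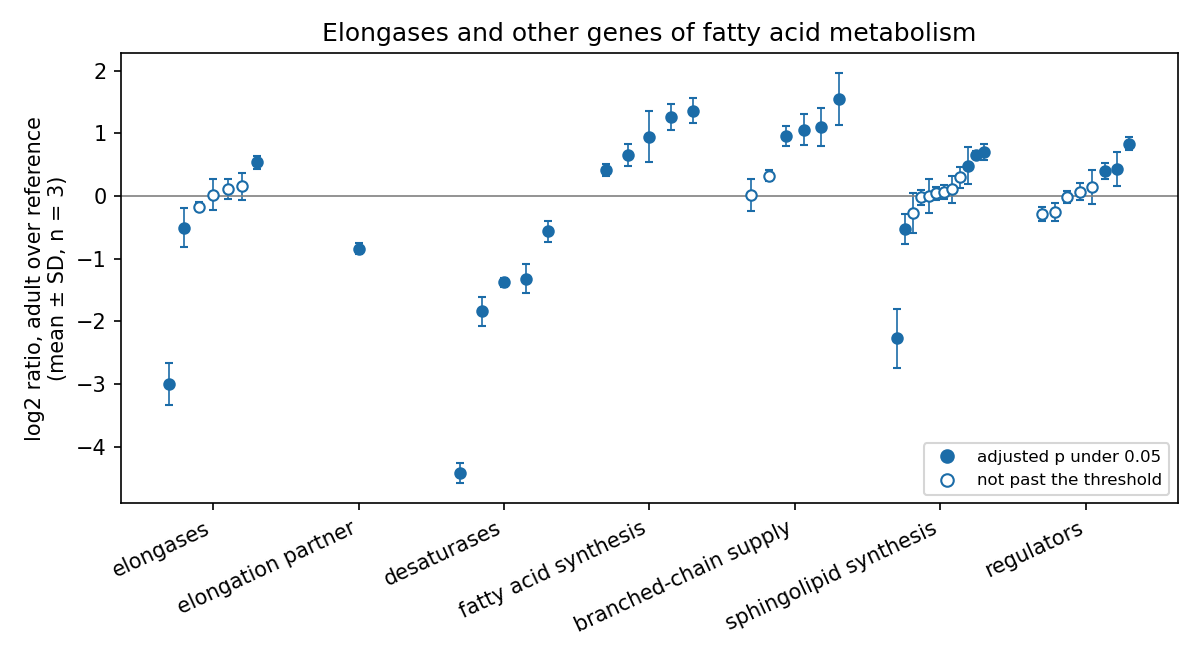
Log2 ratio of adult over reference (vertical axis; mean ± SD, n = 3) for each measured gene of the elongases and of 6 other lists of fatty acid metabolism (horizontal axis), filled where the adjusted p was under 0.05. The 5 desaturases lie below 0 and the 5 synthesis genes above it, while 4 of the 7 elongases are open points near 0.

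The regulators and the sphingolipid genes went both ways or did not pass. Of 8 genes for regulators of lipid metabolism, 3 were higher and 5 did not pass. Their median was 0.11. The share that passed, 37.5%, was below the 44.4% of all genes. The nuclear receptor genes nhr-66 and nhr-13 stood at 0.84 ± 0.11 and 0.44 ± 0.27. The gene sbp-1, for the worm's sterol regulatory element binding protein, which is known to be needed for elo-5 and elo-6 expression, had -0.41, -0.13 and -0.20 on replicates 1, 2 and 3, a mean of -0.25 ± 0.15 that did not pass (adjusted p = 0.153). Of 12 measured sphingolipid synthesis genes, whose products take up branched-chain and very long acyl chains, 3 were higher, 2 lower and 7 did not pass; their median was 0.05. Here 41.7% passed, near the 44.4% of all genes. The ceramide glucosyltransferase gene cgt-1 stood at -2.27 ± 0.47 and the ceramide synthase gene hyl-1 at 0.70 ± 0.13.

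Markers of tissues in the whole worms were counted as well, and their part in the elongase values was not tested. The share that passed was 69.2% for intestine, 75% for epidermis, 57.1% for neuron and 37.5% for sperm genes, against 44.4% of all genes. Of 13 intestine genes, 5 were higher, 4 lower and 4 did not pass (median 0.27; spl-1 at 0.96, ifb-2 at -0.96). Of 12 epidermis genes, 2 were higher, 7 lower and 3 did not pass (median -0.90; rol-6 at -3.63, wrt-1 at -1.90). Of 7 measured neuron genes, 4 were lower and 3 did not pass (median -0.97; ric-4 at -2.14, unc-13 at -1.98). Of 8 sperm genes, 3 were lower and 5 did not pass (median -0.44), with msp-31 at -0.70 and spe-11, which did not pass, at -0.61. The list medians on the 3 arrays ran from 0.25 to 0.45 for intestine, from -0.91 to -0.65 for epidermis, from -1.23 to -0.53 for neurons and from -0.72 to -0.15 for sperm. They ran from 1.26 to 1.56 for oocytes and eggshell, from -1.02 to -0.76 for moulting and from -0.18 to 0.39 for yolk.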

How the data were processed

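The deposited table of 20000 probes holds log2 ratios, 1 for each array. The log2 scale was read from the values (100% of 58013 values within 2 of 0 are the log2 of a ratio with 3 decimals). Background treatment, normalization, dyes and ratio direction are not given in the sources used. GEO's platform annotation gave 15655 probes 1 symbol, 198 several and 4147 none; only the first were named.

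Arrays were centred on their medians (0.06, 0.00 and 0.02), probes of a gene averaged, and the 15092 genes with 3 values tested against 0 with limma 3.58.1 (lmFit, eBayes) in R 4.3.3, which leaves out the reference's own spread. The median SD of a gene was 0.21. The script was tested on simulated data for adult against reference. It recovered 100% of 100 genes changed by 2 and 81% of 100 genes changed by 1. Together these gave 188 calls, of which 7 were false. Few genes were changed there and no offsets of row stretches were simulated, so the share of false calls need not carry over to these arrays.

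Named were all measured elongases, hpo-8, the 2 genes of each other list with the largest absolute ratio, 3 genes nearest to the highest and lowest elongase, and col-19; fat-4, fat-5, fat-7, mlcd-1, bcat-1, dbt-1, sbp-1 and vit-5 were named after their values were seen. Members and lists were chosen with earlier results of these data known. No set test was run.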

Additional observations from a re-analysis of the deposited data

How the results depend on the processing

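No paired analysis was possible because there is 1 group and no second group that shares its replicate numbers. The 14 alternatives were no centring, scale or quantile normalization, centring within 32 runs of rows or within their 4 positions, genes with at least 2 arrays, single probes, unnamed probes too, a robust prior, array weights, treat against 1.5-fold, and leaving out each replicate. In all of them elo-4 was lower and passed (-3.22 to -2.81), and elo-1, elo-2, elo-5 and elo-6 did not pass. Treat, which asks for a larger effect, called 2076 of 15092 genes against 6698 without it; leaving out 1 replicate gave 4948 to 7102. Under treat, elo-3 (0.54) and elo-7 (-0.50) did not pass, leaving 0 higher and 1 lower elongase. Centring by 32 runs had the same counts, 0 and 1, with elo-3 at 0.34 and elo-7 at -0.42; the row stretch of elo-3 had a median of 0.42 on replicate 1. Leaving out 1 replicate gave 0 to 1 higher and 1 to 2 lower elongases, with elo-3 at 0.50 to 0.60 and elo-7 at -0.67 to -0.37; the cause was not tested. The mean of elo-5, which did not pass, was -0.083 to 0.16 and turned below 0 without replicate 2 (-0.083) and without replicate 3 (-0.015). An exact sign-flip test over 3 arrays cannot go below p = 0.25, the value for elo-3 (0.54), elo-4 (-2.997) and elo-7 (-0.50), so it says nothing about their stability. The differences elo-6 minus elo-5 and elo-7 minus elo-1 kept their sign under the normalizations tried and without each replicate (-0.28 to -0.12 and -0.94 to -0.43).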
